A study of Mus musculus with 10 samples.

Results

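Krueppel-like factors (KLFs) are transcription factors, and 10 of their genes were followed in adult mouse haematopoietic stem cells (HSCs) in which a Sox17 transgene was switched on: Klf2, Klf3, Klf4, Klf5, Klf6, Klf7, Klf9, Klf10, Klf12 and Klf13. Each was read from the probe set that names it as its only gene, and each had exactly 1 such probe set, out of 19938 genes with a one-gene probe set on the array. Expression was measured on 10 Affymetrix mouse gene arrays, 5 of HSCs from Sox17-transgenic mice and 5 of HSCs from wild-type littermates. The transgenic mice carried (tetO)7CMVSox17-IRES-NucEGFP together with the Gt(ROSA)26Sor rtTA*M2 allele, a doxycycline-dependent activator driven from a ubiquitously active locus, so that the transgene is not limited to HSCs by its promoter. Both groups were 8 weeks old and drank doxycycline at 2 mg/ml for 5 days, so the drug itself is shared by the controls. Each array holds RNA of 10000 double-sorted bone marrow cells, CD150+ CD48- lineage- Sca1+ cKit+, amplified before labelling. No label links an aliquot to one animal. The p-values therefore reflect only how far these aliquots differ from each other, and some of that spread may be technical.

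KLF proteins bind GC-rich and CACCC-box DNA through zinc fingers at their C-terminal end, which are so alike that family members can compete for the same sites, and differ in the domains in front of them. Klf3, Klf8 and Klf12 recruit the corepressor CtBP, Klf9, Klf10, Klf11, Klf13, Klf14 and Klf16 bind the Sin3A corepressor, and Klf1, Klf2, Klf4, Klf5, Klf6 and Klf7 act largely as activators. In blood, Klf1 drives the erythroid programme, Klf2 maintains naive T cell quiescence and homing, Klf4 promotes monocyte differentiation, and Klf6 is required for early blood and vessel formation; Klf2, Klf4, Klf6 and Klf10 are also quickly induced genes that respond to growth factors, cytokines or handling of cells.

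The promoters of Klf6, Klf9 and Klf3 are shown because these genes were among the 4 members whose transgenic arrays all lay above the wild-type arrays. They are the 250 bases before the annotated start, from RefSeq on GRCm38.p6 and read 5′ to 3′ on the gene's strand, the plus strand in each case: chr13:5861239-5861488 for Klf6, chr19:23140976-23141225 for Klf9 and chr5:64803271-64803520 for Klf3. Capitals mark matches on either strand to the GC box GGGCGG, the CACCC box CCACCC, the core of the cyclic AMP response element ACGTCA and the SOX core ATTGTT.
Klf6 promoter: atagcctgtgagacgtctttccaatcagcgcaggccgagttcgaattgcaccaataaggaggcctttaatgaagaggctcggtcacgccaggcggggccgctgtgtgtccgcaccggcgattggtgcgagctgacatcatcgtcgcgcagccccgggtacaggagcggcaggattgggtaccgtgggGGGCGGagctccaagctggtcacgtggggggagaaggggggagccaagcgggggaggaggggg
Klf9 promoter: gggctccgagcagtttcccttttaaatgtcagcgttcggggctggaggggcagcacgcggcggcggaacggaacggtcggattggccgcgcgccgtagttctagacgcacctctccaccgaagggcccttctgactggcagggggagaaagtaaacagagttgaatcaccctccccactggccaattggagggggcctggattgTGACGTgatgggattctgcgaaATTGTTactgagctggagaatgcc
Klf3 promoter: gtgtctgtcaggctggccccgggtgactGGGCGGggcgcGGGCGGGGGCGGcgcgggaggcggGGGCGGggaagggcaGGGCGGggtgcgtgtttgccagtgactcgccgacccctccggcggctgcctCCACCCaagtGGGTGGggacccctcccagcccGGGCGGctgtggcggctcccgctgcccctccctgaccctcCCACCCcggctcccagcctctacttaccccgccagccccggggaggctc

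The Klf3 promoter held 6 GC boxes and 3 CACCC boxes at a GC content of 78.4%, against a median of 52.4% over 32851 promoters of the same length. The Klf6 promoter held 1 GC box, 63 bases before the start, and none of the other 3 motifs. Klf9 had no match to the GC box or the CACCC box, and held 1 SOX core starting 24 bases before the start and 1 cyclic AMP response element core, on the other strand, starting 46 bases before it. The promoter table held 8 of the 10 members, all except Klf5 and Klf10. Of these 8, 6 held a GC box, 4 a CACCC box, 2 the cyclic AMP response element core and 1 the SOX core, where 32.7%, 28.1%, 6.47% and 9.42% of all promoters held each. A match describes letters in these windows only.

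The arrays fell into 2 sets that did not follow the groups, defined by the sign of the first principal component of each array's departure from its group mean (40.1% of that variance). Set A holds transgenic arrays 1, 2 and 3 and wild-type arrays 1 and 2, and set B holds transgenic arrays 4 and 5 and wild-type arrays 3, 4 and 5. The sets come from the data, and the labels give no batch. Transgenic array 4 alone had Xist at 4.32 log2 units, against 10.80 to 11.40 on the other 9 arrays. The Sox17 probe set read 4.51, 4.50, 4.25, 4.29 and 4.29 on transgenic arrays 1 to 5 and 4.30, 4.14, 4.02, 4.30 and 4.29 on wild-type arrays 1 to 5; the groups overlapped (log2 difference 0.16, SE 0.09, limma adjusted p = 0.855), so this probe set does not show the induced transgene, and every direction here rests on the arrays' labels. Of 9 measured HSC markers none passed the threshold, and 4 had an unadjusted p under 0.05, 3 higher and 1 lower in the transgenic group. Over all probe sets tested, 6.59% had an unadjusted limma p under 0.05, 3.7% in the upward direction. Procr, the protein C receptor, averaged 9.21 and 8.12 on transgenic and wild-type arrays without overlap, Mecom 8.83 and 8.49, Kit 9.43 and 9.90, Hlf 10.22 and 10.23, and Slamf1 (CD150) 7.50 and 7.31.

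None of the 10 KLF genes passed the threshold of an adjusted p of 0.05 over all 23410 probe sets tested with limma, where 0.141% passed (28 higher and 5 lower). Klf6, Klf9, Klf10 and Klf3 were nevertheless higher in the transgenic arrays by 0.98, 0.64, 0.54 and 0.50 log2 units, which is 1.97-fold, 1.56-fold, 1.46-fold and 1.41-fold. Each of these 4 had an unadjusted p under 0.05, as did 6.59% of all probe sets (3.7% in the upward direction). In each of them the 5 transgenic arrays lay wholly above the 5 wild-type ones. Over all probe sets, 0.876% showed that order and 1.47% had groups without overlap in either direction. In RNA of sorted bulk cells, fewer cells of a type and less RNA per cell cannot be told apart. The same 4 genes stayed under an unadjusted p of 0.05 in every fit that left out 1 array. Those fits reuse the arrays on which the 4 genes were already separated, so they are no independent test. The members were chosen with earlier results of these data known, so their counts beside the shares of all probe sets are a description. The other 6 members differed by -0.11 to 0.19, and the median over the 10 was 0.13, beside -0.01 over all probe sets.

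**Figure D1:**
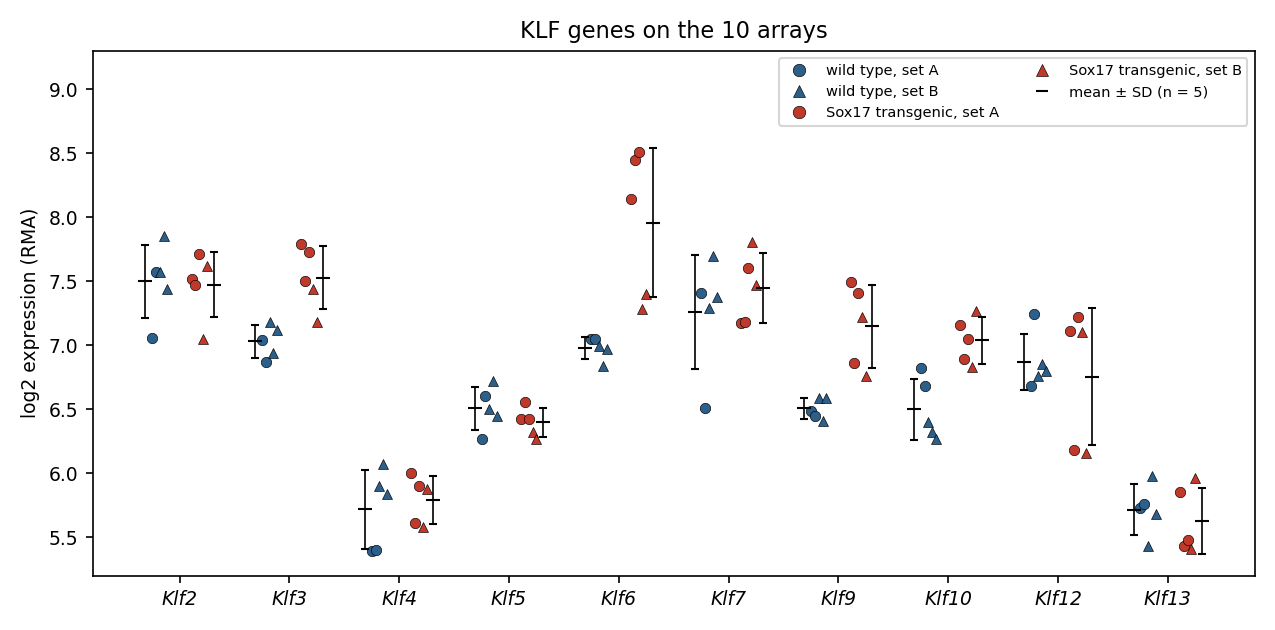
RMA log2 expression (y axis) of the 10 KLF genes (x axis) on 5 wild-type (blue) and 5 Sox17-transgenic (red) arrays, circles for set A and triangles for set B, with the mean ± SD of each group beside the points. For Klf6 the 3 transgenic arrays of set A sit between 8.14 and 8.51 and the 2 of set B at 7.28 and 7.40, all above the wild-type arrays at 6.84 to 7.05.

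Klf6, an activator of cell cycle inhibitor and TGF-beta pathway genes that is also known as a tumour suppressor, showed the largest difference among the members. It read 8.14, 8.45, 8.51, 7.28 and 7.40 on transgenic arrays 1 to 5 and 7.05, 7.05, 6.99, 6.84 and 6.97 on wild-type arrays 1 to 5. The wild-type arrays were thus nearly level, and the transgenic arrays split into 3 high arrays, all of set A, and 2 lower ones, both of set B. Group means were 7.96 ± 0.58 and 6.98 ± 0.09 (SD, n = 5 each), with a log2 difference of 0.98 (95% interval 0.47 to 1.48; limma adjusted p = 0.207). Within set A the difference was 1.32 (SE 0.14, adjusted p = 0.0634) and within set B 0.41 (SE 0.13, adjusted p = 0.682); with the set as a block it was 0.86 (adjusted p = 0.0605). The sets were defined from the spread of these same values within the groups, so the SEs and p-values of these fits are not independent of that choice. That the difference is unequal between the sets was not tested. Without transgenic array 4 it was 1.14 (adjusted p = 0.106).

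Klf7, the member most closely related to Klf6 and known mainly from neurons and adipocytes, did not share this pattern. Its values were 7.17, 7.18, 7.60, 7.81 and 7.47 on the transgenic arrays and 7.41, 6.51, 7.29, 7.70 and 7.38 on the wild-type arrays. The groups overlapped, with transgenic array 4 and wild-type array 4 the highest of each. The log2 difference was 0.19 (95% interval -0.27 to 0.65; limma adjusted p = 0.953), and without wild-type array 2, the lowest, it was 0.00.

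Klf9, a gene that glucocorticoid and thyroid hormone receptors induce, had the smallest p of the 10. Transgenic arrays 1 to 5 read 7.49, 6.86, 7.41, 7.22 and 6.76, and wild-type arrays 1 to 5 read 6.49, 6.45, 6.59, 6.41 and 6.59. All transgenic arrays were above all wild-type arrays, with arrays 2 and 5 the lowest of the transgenic group. Means were 7.15 ± 0.33 and 6.51 ± 0.08 (SD, n = 5 each), a log2 difference of 0.64 (95% interval 0.33 to 0.95; limma adjusted p = 0.153). Set A gave 0.78 and set B gave 0.46. Leaving out transgenic array 5 gave 0.74 (adjusted p = 0.0684).

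Klf10, also named TIEG1, is induced by TGF-beta and strengthens SMAD signalling. Its values were 7.16, 6.89, 7.05, 6.83 and 7.27 in the transgenic group and 6.82, 6.68, 6.40, 6.32 and 6.27 in the wild-type group. The gap between the groups was narrow, 0.013 log2 units between transgenic array 4 and wild-type array 1, and the 2 wild-type arrays of set A were the highest of their group. The log2 difference was 0.54 (95% interval 0.26 to 0.82; limma adjusted p = 0.207), and it was smaller within set A (0.28) than within set B (0.72), the reverse of the order seen in Klf6.

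The close relative of Klf10, Klf11, which is not among the 10, differed by 0.26 (95% interval -0.01 to 0.52; adjusted p = 0.771), with transgenic arrays at 6.60 to 7.04 and wild-type arrays at 6.44 to 6.98. Klf13, an activator of the chemokine gene Ccl5 in T cells that also binds Sin3A, read 5.41 to 5.96 with a median of 5.48 on the transgenic arrays and 5.43 to 5.98 with a median of 5.73 on the wild-type arrays. The groups covered the same range. Its log2 difference was -0.09 (95% interval -0.39 to 0.21).

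Of the CtBP-binding repressors, the groups did not overlap for Klf3 and overlapped for Klf12. Klf3, which restrains Klf1 target genes and fat cell development, read 7.79, 7.50, 7.73, 7.44 and 7.18 on transgenic arrays 1 to 5. Wild-type arrays 1 to 5 read 7.04, 6.87, 7.18, 6.94 and 7.12. Transgenic array 5 and wild-type array 3 nearly touched, 0.002 log2 units apart. Means were 7.53 ± 0.25 and 7.03 ± 0.13 (SD, n = 5 each), a log2 difference of 0.50 (95% interval 0.24 to 0.76; limma adjusted p = 0.211), with 0.72 in set A and 0.23 in set B. Without transgenic array 5 it was 0.59 (adjusted p = 0.078).

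Klf12, a repressor first found at the gene of the factor AP-2 alpha, had 2 levels among the transgenic arrays. Arrays 1, 3 and 4 read 7.11, 7.22 and 7.10, and arrays 2 and 5 read 6.18 and 6.16. On wild-type arrays 1 to 5 it read 6.68, 7.24, 6.76, 6.85 and 6.80, between these levels apart from array 2. The split did not follow the array sets, since each set holds transgenic arrays of both levels. The log2 difference was -0.11 (95% interval -0.62 to 0.39; limma adjusted p = 0.985), with an SD of 0.54 in the transgenic group and 0.22 in the wild-type group, and it was 0.03 without transgenic array 2 or without transgenic array 5. Klf8, the other member of this subgroup, differed by -0.25 (95% interval -0.52 to 0.02).

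**Figure D2:**
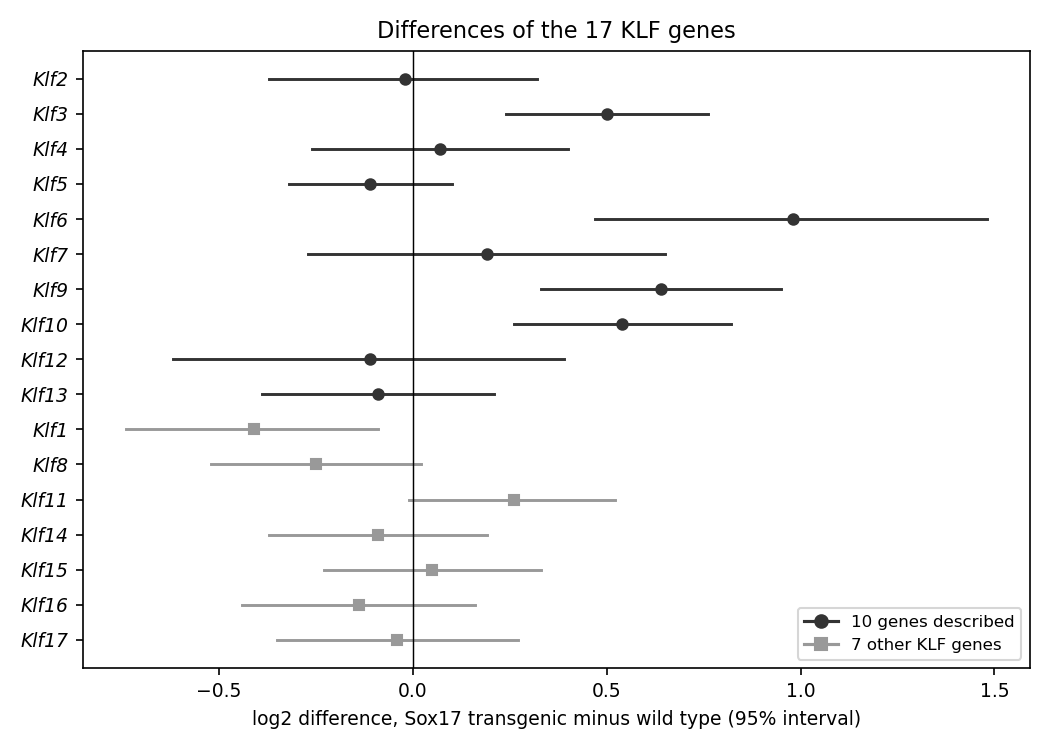
Log2 difference between Sox17-transgenic and wild-type arrays (x axis) with its 95% interval from the limma fit, for the 10 KLF genes described (circles) and the 7 other KLF genes (squares). The intervals of Klf3, Klf6, Klf9 and Klf10 lie above 0 and that of Klf1 lies below 0, from -0.74 to -0.09, before adjustment for the number of probe sets tested.

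Klf2, Klf4 and Klf5, the activators best known from endothelium, stem cell pluripotency and epithelium, had groups that overlapped and intervals that include 0. Klf2 read 7.52, 7.47, 7.71, 7.05 and 7.62 in the transgenic group and 7.06, 7.57, 7.57, 7.85 and 7.44 in the wild-type group. Both groups had 1 low array, and their ranges nearly coincided. The log2 difference was -0.02 (95% interval -0.37 to 0.32; limma adjusted p = 0.996), which changed sign between the sets (A 0.25, B -0.28).

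For Klf4 the transgenic arrays read 6.00, 5.61, 5.90, 5.58 and 5.88 and the wild-type arrays 5.39, 5.40, 5.90, 6.07 and 5.84. Wild-type arrays 1 and 2, those of set A, were the lowest of all 10, wild-type arrays 3 and 5 lay among the transgenic ones, and wild-type array 4 was the highest of all 10. Set A thus gave a difference of 0.44 (adjusted p = 0.559), set B gave -0.21, and all arrays gave 0.07 (95% interval -0.26 to 0.40). Klf5 read 6.27 to 6.56 with a median of 6.42 against 6.27 to 6.72 with a median of 6.50, a log2 difference of -0.11 (95% interval -0.32 to 0.10). Intervals for Klf2, Klf4 and Klf5 leave room for differences of up to 0.40 upward, and the interval for Klf6 starts at 0.47. These intervals are not adjusted for the number of probe sets, and differences between genes were not tested.

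**Figure D3:**
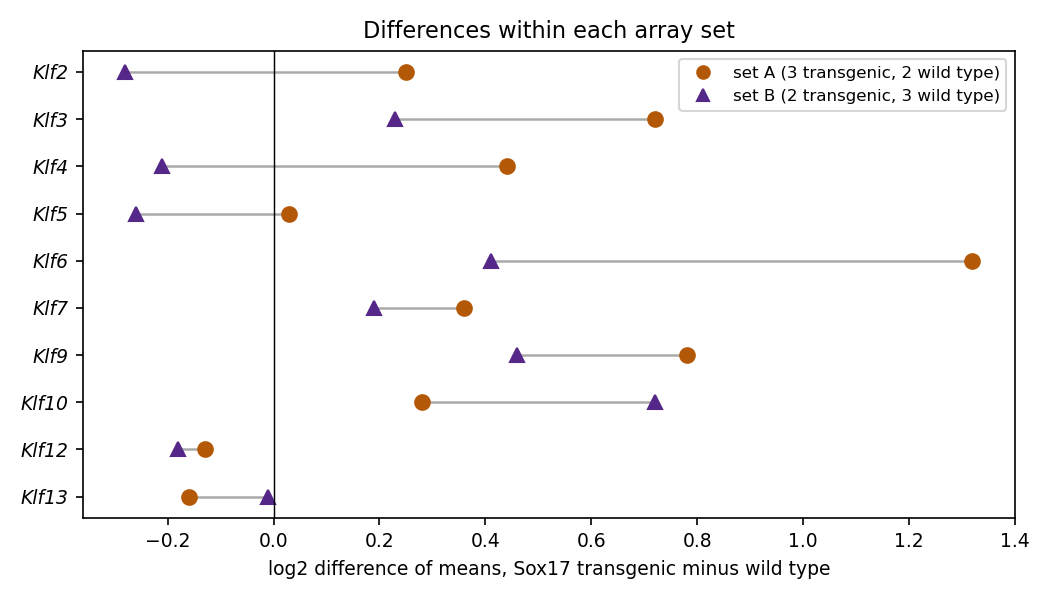
Log2 difference of means between Sox17-transgenic and wild-type arrays (x axis) computed within set A (circles, 3 transgenic and 2 wild-type arrays) and within set B (triangles, 2 transgenic and 3 wild-type arrays) for the 10 KLF genes. Klf6 reads 1.32 and 0.41, Klf10 lies the other way round at 0.28 and 0.72, and Klf2, Klf4 and Klf5 lie on both sides of 0.

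Of the 7 other KLF genes none passed the threshold, and 2 differences were positive and 5 negative. An unadjusted limma p under 0.05 was found for 1 of them (14.3%), beside 6.59% of all probe sets. That 1 was Klf1, the erythroid factor, which read 4.79, 5.11, 4.62, 4.76 and 4.74 in the transgenic group and 5.48, 5.61, 4.90, 5.09 and 5.02 in the wild-type group. Its log2 difference was -0.41 (SE 0.15, limma adjusted p = 0.557), and transgenic array 2 overlapped with the wild-type arrays. Klf14, Klf15, Klf16 and Klf17 differed by -0.14 to 0.05. Among 8 measured genes of the related Sp factors, which bind the same GC boxes, none had an unadjusted p under 0.05, and the differences ran from -0.23 for Sp6 to 0.30 for Sp4.

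The members were also compared by the root mean square difference between their deviations from their own means over the 10 arrays. The deviations were not scaled, so this measure depends on their size as well as on their shape. Klf3 was the gene nearest to Klf9 among 9384 genes at or above the median level, at 0.13 log2 units, and Klf9 ranked 2 among those nearest to Klf3. After Klf3 the genes nearest to Klf9 were Deptor, an inhibitor of mTOR (0.13), Layn, a hyaluronan receptor (0.16), Il6st, the shared receptor chain gp130 of the interleukin-6 family (0.16), and Podxl, a CD34-related sialomucin (0.18). Their differences were 0.55, 0.58, 0.65 and 0.47, with limma adjusted p of 0.341, 0.219, 0.132 and 0.627. Klf12 shared with Klf9 the low transgenic arrays 2 and 5 but not the lower wild-type level, at 0.44 log2 units from Klf9.

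The genes nearest to Klf6 were Myh10, a non-muscle myosin heavy chain (0.22), Diaph2, a formin that builds actin filaments (0.22), Nek6, a mitotic kinase (0.23), Ece1, the endothelin-converting enzyme (0.25), and Dnajb9, a chaperone of the endoplasmic reticulum (0.27). Diaph2, for example, read 7.30, 7.22, 7.82, 6.87 and 6.40 in the transgenic group and 6.35, 6.19, 6.18, 6.05 and 5.85 in the wild-type group. All 5 had higher values on transgenic arrays 1, 2 and 3 than on 4 and 5, and none of their differences, 0.62 to 1.00, reached the threshold (adjusted p of 0.157 to 0.573 in limma). They were chosen for this likeness, so it is a description. Among the members, Klf3, Klf9 and Klf10 ranked 53, 95 and 314 in nearness to Klf6. In the other direction, Klf6 ranked 4831, 3054 and 6688 of 9384 genes in nearness to Klf3, Klf9 and Klf10.

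**Figure D4:**
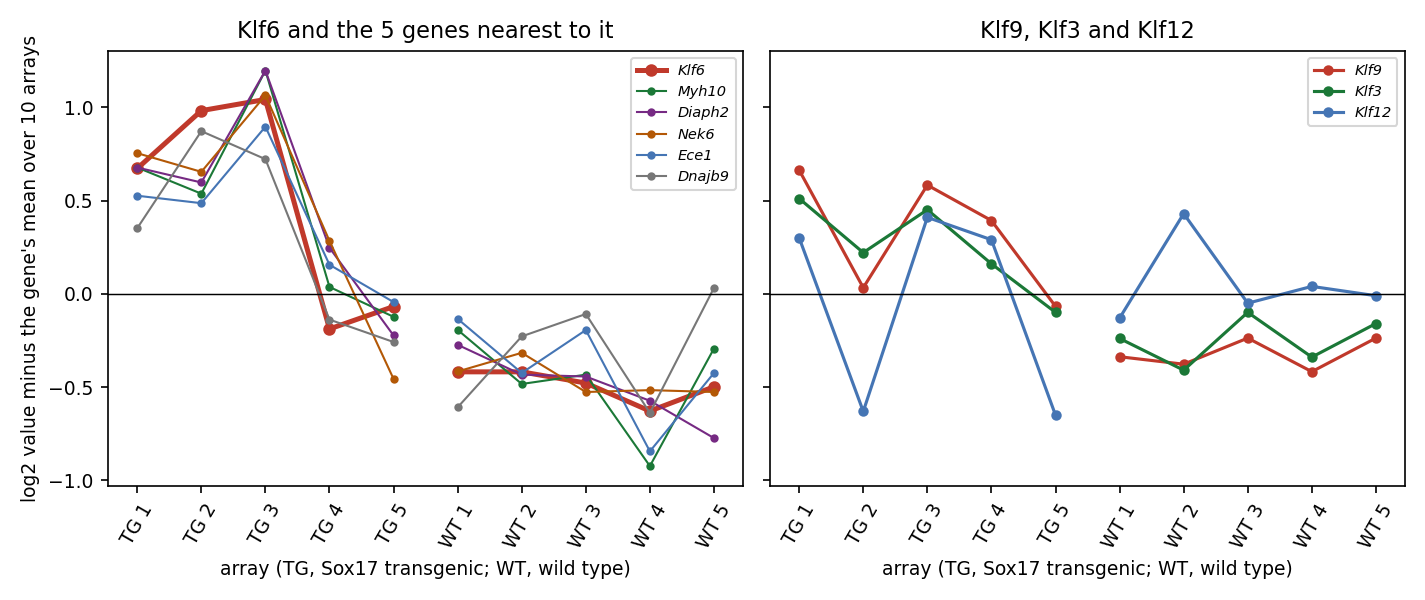
Deviation of each gene's log2 value from its own mean over the 10 arrays (y axis) by array (x axis), for Klf6 with the 5 genes nearest to it (left) and for Klf9, Klf3 and Klf12 (right). Klf6 and its neighbours drop between transgenic arrays 3 and 4, while Klf12 dips on transgenic arrays 2 and 5, where it reads 6.18 and 6.16.

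Genes around the KLFs were counted from lists. Of 13 cofactors that KLF proteins bind, none passed the threshold and 2 (15.4%) had an unadjusted limma p under 0.05, beside 6.59% of all probe sets. These were the ubiquitin ligase Wwp1, which degrades Klf2 and Klf5, at 0.30 (SE 0.13, adjusted p = 0.73) and the acetyltransferase Ep300 at 0.54 (SE 0.24, adjusted p = 0.754). Ctbp1 and Sin3a differed by -0.03 and 0.04. Of 12 measured genes of the ERK5 and MEF2 pathway, the FOXO factors and the CCM complex, which control Klf2 and Klf4, none passed. In this list 2 genes (16.7%) had an unadjusted limma p under 0.05, beside the same 6.59%. These were Foxo1, an inducer of Klf2 in lymphocytes, at 0.46 (SE 0.15, limma adjusted p = 0.47), and the endothelial receptor Heg1 at 0.42 (SE 0.15, adjusted p = 0.528).

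Among 17 measured genes described as KLF targets, 1 passed the threshold, and it was higher in the transgenic group. Counting it, 2 genes were higher and 2 lower with an unadjusted limma p under 0.05. That is 23.5% of the list, beside 6.59% of all probe sets. S1pr1, the sphingosine 1-phosphate receptor that Klf2 activates in T cells, read 7.47, 6.99, 7.39, 7.30 and 7.42 in the transgenic group and 6.48, 6.62, 6.40, 6.26 and 5.97 in the wild-type group. The groups did not overlap, and the log2 difference was 0.97 (SE 0.13, limma adjusted p = 0.0185), while Klf2 itself differed by -0.02. Thrombomodulin, Thbd, another gene that Klf2 activates, differed by -0.43 (adjusted p = 0.432), and Smad7, which Klf10 represses, by 0.43 (adjusted p = 0.513). The list's genes of TGF-beta and its receptors, which include targets of Klf6, differed in both directions. Endoglin (Eng), Tgfbr1 and Tgfbr2 differed by 0.18, 0.09 and 0.20, and Tgfb1 and Acvrl1 by -0.21 and -0.05. The list's median was 0.10, with 11 positive and 6 negative differences.

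Immediate early genes and markers of other cell types were measured on the same arrays. Of 28 measured immediate early genes outside the KLF family, 24 differences were positive, 4 had an unadjusted p under 0.05, none passed the threshold and the median was 0.24. Over all 23410 probe sets tested, 10828 differences were positive, 6.59% had an unadjusted limma p under 0.05 and the median was -0.01. Their mean level was 6.19 and 6.23 on wild-type arrays 1 and 2, the arrays with the lowest Klf4, against 6.69 to 6.79 on the other wild-type and 6.59 to 7.07 on the transgenic arrays. Transgenic arrays 1, 2 and 3, where Klf6 was highest, had mean levels of 6.87, 6.86 and 6.61, and array 5 had the highest, 7.07. Nfkbia, the inhibitor of NF-kappaB, differed by 0.95 (SE 0.21, limma adjusted p = 0.151), and Fos read 7.49 to 8.23 on the transgenic arrays, 5.95 and 6.20 on wild-type arrays 1 and 2 and 7.59 to 7.86 on the other wild-type arrays.

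The mean level over all 8 endothelial markers was 6.44 to 6.95 on the transgenic and 6.15 to 6.36 on the wild-type arrays, without overlap, while their summed linear level, 1071 to 1428 against 795.1 to 1102, overlapped. None of the 8 passed the threshold, 6 differences were positive, and Kdr and Flt1 differed by -0.04 and -0.08. Pecam1 differed by 0.68 (adjusted p = 0.059) and Cdh5 by 1.48 (adjusted p = 0.305), with Cdh5 at 7.38 and 7.70 on transgenic arrays 1 and 3. For megakaryocyte markers, 5 measured of 6 listed, the mean level was 5.93 to 6.38 against 6.92 to 7.58 and the summed linear level 356.5 to 510.1 against 821.8 to 1710. All 5 differences were negative with an unadjusted limma p under 0.05, and the 1 that passed the threshold was Pf4, which fell by 2.53 on the log2 scale (adjusted p = 0.0112). Among all 23410 probe sets tested, 678 were lower with an unadjusted limma p under 0.05, and 5 were lower and passed the threshold. Granulocyte and monocyte markers, 10 of 10 measured, averaged 5.69 to 7.17 on the transgenic and 5.41 to 5.85 on the wild-type arrays, with overlap. Their summed linear level, 905.2 to 2128 against 684.8 to 884.4, did not overlap. Of the 10 differences 9 were positive, 1 had an unadjusted limma p under 0.05 and none passed the threshold. The highest mean levels, 6.30 and 7.17, were on transgenic arrays 4 and 5, where Klf6 was lowest in that group. The mean levels of the erythroid, B cell, T and NK cell and stromal lists overlapped between the groups. RMA values have no true 0, and the part of these cell types, of the immediate early genes and of the array sets in the KLF differences was not tested.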

How the data were processed

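The data are 10 Affymetrix Mouse Gene ST 1.0 arrays, 5 per group; groups and replicate numbers come from the sample titles. The authors deposited log2 values per probe set, made with robust multi-array average (RMA) per the submitters' processing notes, which also name affy and limma; their versions and settings, and the array design's genome build, are, in the sources used here, not given. RMA compresses differences between low values. Precision is limited by how many arrays there are. The values were used as they stand, without filter or pseudocount.

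The platform annotation pairs 21789 of 35556 probe sets with 1 gene symbol and 1621 with several; 12146 are unnamed here. The 23410 named ones were fitted with limma 3.58.1 in R 4.3.3 (lmFit, eBayes, two-sided, transgenic minus wild type, no covariate), with Benjamini-Hochberg adjusted p over the whole set, called at 0.05. A gene's value is that of the probe set naming it alone, the brightest on average where there are several. The members and the 14 lists were chosen with earlier results of these data known. Named genes are the 10 members, up to 3 genes with the smallest p of each list (with Sox17 and Xist as checks), and the 5 genes nearest in pattern to Klf6 and to the member with the next largest SD, Klf9; predicted models and clone names were passed over. Other genes given as values (Ctbp1, Sin3a, Eng, Tgfbr1, Tgfbr2, Tgfb1, Acvrl1, Fos, Hlf, Slamf1, Kdr, Flt1, and the Klf genes outside the 10) were picked for their role after their values were seen. The alternatives were quantile normalization, median centring, a block for the replicate number, a filter on dim probe sets, all probe sets, a trended robust prior, array weights, a floor, the array sets as a block and separately, and leaving out each array. Promoter sequences are those of RefSeq, GRCm38.p6.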

Additional observations from a re-analysis of the deposited data

Results flagged for a closer look

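Among 132 groups of 5 arrays checked (Sox17, the KLF genes, and the genes named from the lists or by likeness, in each group), 6 held an array whose gap to the nearest other array was large for the group's range, where chance flags about 1 in 20. Among the wild-type arrays, Klf8 read 5.28 on array 2 against 5.71 to 5.81 on the others, and Klf17 read 3.84 on the same array against 3.34 to 3.43. Klf16 read 7.73 on wild-type array 4 against 7.15 to 7.31. Sp4 read 5.94 on wild-type array 4 against 6.85 to 6.90, and Ctbp2 read 7.25 on wild-type array 1 against 6.93 to 7.02. In the transgenic group, Lyz2 read 9.08 on array 2 against 8.57 to 8.70. None of the 10 KLF genes followed here was among them.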

How the results depend on the processing

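In all 21 alternatives 0 of the 10 KLF genes passed the threshold in limma, and 4 had an unadjusted p under 0.05, except within set B, where 3 did; within set A the 4 were Klf3, Klf4, Klf6 and Klf9. Klf3, Klf6, Klf9, Klf10, Klf7 (0.00 to 0.36) and Klf13 kept their direction, Klf6 at 0.41 to 1.32 with an adjusted p of 0.0605 to 0.682, and Klf9 at 0.46 to 0.78 (0.0684 to 0.789). Differences near 0 changed sign: Klf2 to 0.02 with array weights, 0.25 in set A, 0.08 when transgenic array 4 was left out and 0.06 when wild-type array 4 was (range over single arrays left out -0.13 to 0.08); Klf4 to -0.21 in set B and -0.01 without wild-type array 1 or 2 (range -0.01 to 0.16); Klf5 to 0.03 in set A; Klf12 to 0.03 without transgenic array 2 or 5 (range -0.23 to 0.03). The cause was not tested. Klf4 and Klf13 lie below the median level and were not tested among the brighter probe sets. The mean over a gene's probe sets was not run, since each of the 10 has 1. Fits that use the array sets rely on sets taken from these same values, so their p-values and counts are no independent test. Over all probe sets, 33 passed, against 15 when the whole table was tested, 8 with the floor, 91 with the array set as a block, 4 within set A and 6 within set B (fewer samples), and 15 to 71 when 1 array was left out, with 71 without transgenic array 2, 19 and 15 without transgenic arrays 3 and 4, and 20, 18, 16, 17 and 17 without wild-type arrays 1 to 5. With the replicate number as a block 33 passed too, 26 higher and 7 lower, and 0 members. The labels do not say what the number shares: deviations of same-numbered arrays correlated at -0.14 to 0.35, and 1 of 10 arrays correlated best with its own number. The floor was the 20th percentile of all values, 3.73. The table holds no background signal, so how far a gene lies above background is not known.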
